A study of Mus musculus with 16 samples.

Results

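WNT receptors and their intracellular partner beta-catenin were followed in lung tumour cells with and without a CRISPR guide against *Eif4a2*. The set holds 10 genes of the 20622 with total RNA values: the Frizzled receptors *Fzd1*, *Fzd2*, *Fzd3*, *Fzd5*, *Fzd6* and *Fzd7*, the co-receptors *Lrp5* and *Lrp6*, the receptor tyrosine kinase-like protein *Ror1*, and *Ctnnb1*, which encodes beta-catenin. They were listed by symbol, and the list was chosen by measured values of these same libraries, the total RNA of *Fzd3* and the footprints per mRNA of *Ror1* in KM_4A2cr against KM_NTC cells. Differences between the lines in these 10 genes are therefore given as a description, with standard errors and values for each replicate pair. Calls of the fit over all genes are counted for them once, beside the share of all genes, and nothing is read from that count.

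WNT proteins are secreted, lipid-modified ligands that bind the extracellular cysteine-rich domain of Frizzled receptors, which span the membrane repeatedly. When LRP5 or LRP6 joins the complex, Dishevelled is recruited, the destruction complex that marks beta-catenin for degradation is held back, and beta-catenin enters the nucleus to act with TCF/LEF factors. ROR1, RYK and PTK7 are single-pass receptors or co-receptors better known for arms of the pathway that do not need beta-catenin, such as planar cell polarity. In the lung, WNT signals act in branching of the developing airway epithelium and maintain stem-cell functions of alveolar type II cells in the adult.

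Both cell lines came from lung tumours of 1 male mouse at clinical endpoint that carried *Rosa26* LSL-MYC/LSL-MYC, so human MYC was shared by all libraries. In this model a CRE virus driven by the promoter of surfactant protein C switches the allele on, and the age of the donor mouse was not given in the sources used here. KM_NTC cells carried a non-targeting guide. KM_4A2cr cells carried a lentiCRISPR guide against the coding region of *Eif4a2*, which encodes an RNA helicase of translational control, and were a pool of 4 clones without detectable eIF4A2 protein. The effect of the guide and other differences between these 2 lines cannot be told apart. All cells were untreated. Each line gave 4 replicates from different days, and each replicate gave 1 library of ribosome-protected fragments (RPFs, the stretches of mRNA under translating ribosomes) and 1 of cytoplasmic total RNA from the same lysate, 16 libraries in all.

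The libraries held between 4512403 and 9621848 RPF counts and between 5350919 and 9312622 total RNA counts. *Eif4a2* was lower in KM_4A2cr RPFs in 4 of 4 pairs, with a log2 difference of -0.49 (SE 0.15, adjusted p = 0.0941 in edgeR). In CPM (TMM-scaled counts relative to library size) *Eif4a2* RPFs were 97.7, 122, 99.8 and 389 in KM_NTC replicates 1 to 4. In KM_4A2cr they were 51.0, 88.4, 74.8 and 346, so replicate 4 was highest in both lines. Pair 4 had the smallest difference, -0.17. The fit gave -0.60 (SE 0.12) without replicate 4, and -0.35 to -0.50 without replicate 1, 2 or 3. Here and below SE is a standard error derived from edgeR's quasi-likelihood F-test. It is the absolute log2 fold change divided by the square root of the F statistic. Adjusted p comes from the same test, Benjamini-Hochberg corrected across every gene tested. In total RNA the *Eif4a2* difference was -0.18 (SE 0.13, adjusted p = 0.504 in edgeR). This says nothing of the protein, since a guide in the coding region need not remove the mRNA. All 7 epithelial markers reached at least 1 TPM in every library (summed 4784 to 5499 TPM in KM_NTC and 4515 to 7093 TPM in KM_4A2cr). Of 10 alveolar type II markers, 2 did (*Abca3* and *Etv5*), and the defining genes *Sftpc* and *Sftpb* were listed at 0 in all 8 total RNA libraries. Fibroblast markers summed to at most 3.03 TPM and endothelial markers to at most 1.94 TPM. Leukocyte markers summed to 33.3 to 220 TPM in KM_NTC and 37.7 to 155 TPM in KM_4A2cr, nearly all of it *Cd68*, while *Cd3e* and *Adgre1* were listed at 0, and their part in the results was not tested. Replicate 4 stood apart: without it the genes past an adjusted p of 0.1 in RPFs went from 1062 to 3469, so values without it are given where they differ.

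For 5 of the 10 genes RefSeq (GRCm38.p6) gave a promoter window. The 250 bases before the start are shown for the receptor in that table whose RNA was higher in KM_4A2cr in all 4 pairs, *Fzd5* (chr1:64737751-64738000, minus strand), and for the one whose RNA was lower in all 4, *Ror1* (chr4:100095541-100095790, plus strand). Both are written 5′ to 3′ along the gene, and capitals mark the GC box GGGCGG or its reverse complement CCGCCC, a binding motif of the SP factors.
Fzd5: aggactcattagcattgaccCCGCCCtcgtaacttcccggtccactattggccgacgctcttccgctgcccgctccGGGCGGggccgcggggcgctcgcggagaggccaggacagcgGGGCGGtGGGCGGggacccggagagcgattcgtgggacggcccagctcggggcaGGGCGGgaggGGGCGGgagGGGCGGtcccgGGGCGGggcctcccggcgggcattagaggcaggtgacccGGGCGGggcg
Ror1: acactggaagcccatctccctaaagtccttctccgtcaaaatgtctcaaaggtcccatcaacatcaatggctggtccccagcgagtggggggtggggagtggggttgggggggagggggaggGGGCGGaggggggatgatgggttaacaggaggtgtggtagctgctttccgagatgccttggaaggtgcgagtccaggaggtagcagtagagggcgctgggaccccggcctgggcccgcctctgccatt
The *Fzd5* window held 9 GC boxes and 76.4% G or C, and as many boxes were found in 0.0731% of 32851 RefSeq windows of the same length. The *Ror1* window held 1 box and 62.4% G or C, and 32.7% of all windows held at least 1. The other windows held 6 boxes for *Fzd7* (as many in 0.886% of all windows), 0 for *Fzd1*, and 3 and 2 for *Ctnnb1*. The TCF/LEF motif CTTTGAT, read on both strands, was in 0 of the 6 windows of the 5 genes and in 3.21% of all windows. These matches describe sequence only.

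Scaled by length, the mRNAs spanned a wide range. In KM_NTC total RNA *Ctnnb1* was highest at 356 ± 86.8 TPM (SD, n = 4, a length-scaled share of the library), followed by *Lrp6* at 102 ± 8.73 TPM. *Lrp5* at 39.5 ± 6.20 TPM and *Fzd6* at 39.2 ± 4.92 TPM came next and their libraries overlapped, so these neighbours had no order beyond their spread. *Fzd5* had 14.2 ± 2.29 TPM and *Fzd1* 6.91 ± 2.09 TPM. *Fzd2* (1.56 ± 0.76 TPM), *Ror1* (1.49 ± 0.70 TPM) and *Fzd7* (0.72 ± 0.67 TPM) were scarce and overlapped, and *Fzd3* was lowest at 0.10 ± 0.08 TPM. *Fzd6* and *Fzd5* were thus the leading Frizzled mRNAs of the set, and the genes that led to its choice, *Fzd3* and *Ror1*, were among the scarcest.

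**Figure D1:**
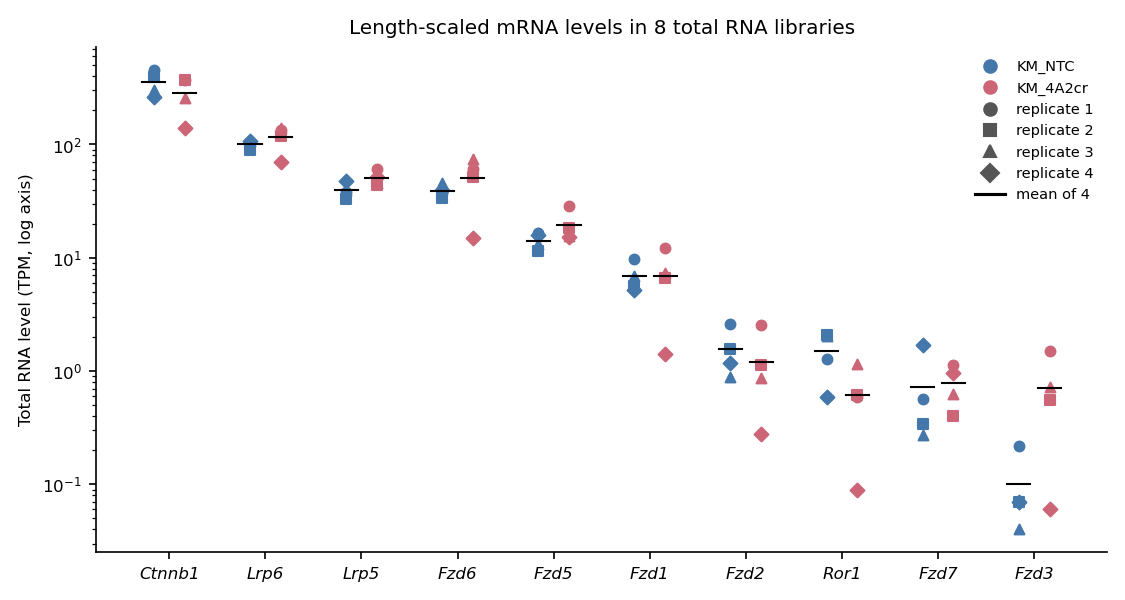
Total RNA level in TPM on a log axis for each gene, ordered by its KM_NTC mean. Points are the 4 libraries of each line (shape gives the replicate) and bars are means. *Ctnnb1* lies near 356 TPM and *Fzd3* near 0.10 TPM in KM_NTC, and the KM_4A2cr library of replicate 4 is the lowest of its line for 8 of the 10 genes.

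In KM_4A2cr cells *Ctnnb1* had 285 ± 111 TPM, *Lrp6* 116 ± 31.7 TPM, *Fzd6* 50.5 ± 25.5 TPM, *Lrp5* 50.5 ± 7.51 TPM and *Fzd5* 19.4 ± 6.20 TPM (SD, n = 4). *Fzd3* reached 0.71 ± 0.60 TPM and *Ror1* 0.61 ± 0.43 TPM, with overlapping libraries, so neither stood above the other there.

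Of the Frizzled receptors, *Fzd3*, which acts in planar polarity and axon guidance, showed the widest difference in total RNA. It had 11, 5, 2 and 3 counts in KM_NTC replicates 1 to 4 and 69, 28, 30 and 3 in KM_4A2cr, or 1.54, 0.450, 0.270 and 0.575 CPM (TMM-scaled counts relative to library size) against 11.3, 3.56, 5.68 and 0.691 CPM. The first 3 KM_4A2cr libraries lay above every KM_NTC library, and that of replicate 4 lay inside the KM_NTC range. The fitted log2 fold change was 2.92 (SE 0.39). It was 3.14 (SE 0.32) without replicate 4 and 2.60 (SE 0.44) without replicate 3. *Fzd3* passed the filter on low counts mainly through the KM_4A2cr libraries, in which it is high, and without replicate 1 or replicate 2 it did not pass. In RPFs it had 4, 0, 2 and 0 counts in KM_NTC and 11, 2, 5 and 2 in KM_4A2cr, too few for the fit, so whether its footprints per mRNA differed was not detectable at this depth.

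*Fzd5*, a receptor that can drive the beta-catenin arm, was higher in KM_4A2cr in all 4 pairs, in RPFs and in total RNA alike. Its RPFs were 19.2, 7.35, 17.7 and 21.6 CPM in KM_NTC and 34.9, 16.0, 23.4 and 33.9 CPM in KM_4A2cr. The ranges of the lines overlapped, since replicate 2 was low in both, but every KM_4A2cr library exceeded its own partner. Total RNA was 54.6, 30.9, 43.5 and 59.6 CPM against 95.3, 54.2, 55.9 and 76.1 CPM. The log2 fold changes were 0.75 (SE 0.15) in RPFs and 0.58 (SE 0.14) in total RNA. Footprints per mRNA, the RPF difference less that of total RNA, were 0.16 (SE 0.13).

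*Fzd6*, known for hair patterning and planar polarity, was higher in the first 3 pairs and lower in the last. Total RNA was 86.0, 65.1, 105 and 112 CPM in KM_NTC and 146, 107, 186 and 56.5 CPM in KM_4A2cr, so replicate 4 held the highest KM_NTC value and the lowest KM_4A2cr value. RPFs had the same layout, with 109, 69.2, 127 and 151 CPM against 180, 112, 228 and 87.8 CPM. The RPF log2 fold change of 0.39 (SE 0.25) became 0.76 (SE 0.10) without replicate 4, and the total RNA value of 0.36 (SE 0.26) also became 0.76 (SE 0.10). Without replicate 1, 2 or 3 they were lower, at 0.26 to 0.29 in RPFs and 0.19 to 0.23 in total RNA. Per mRNA, *Fzd6* footprints differed by 0.04 (SE 0.10), with pair differences between -0.04 and 0.20.

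**Figure D2:**
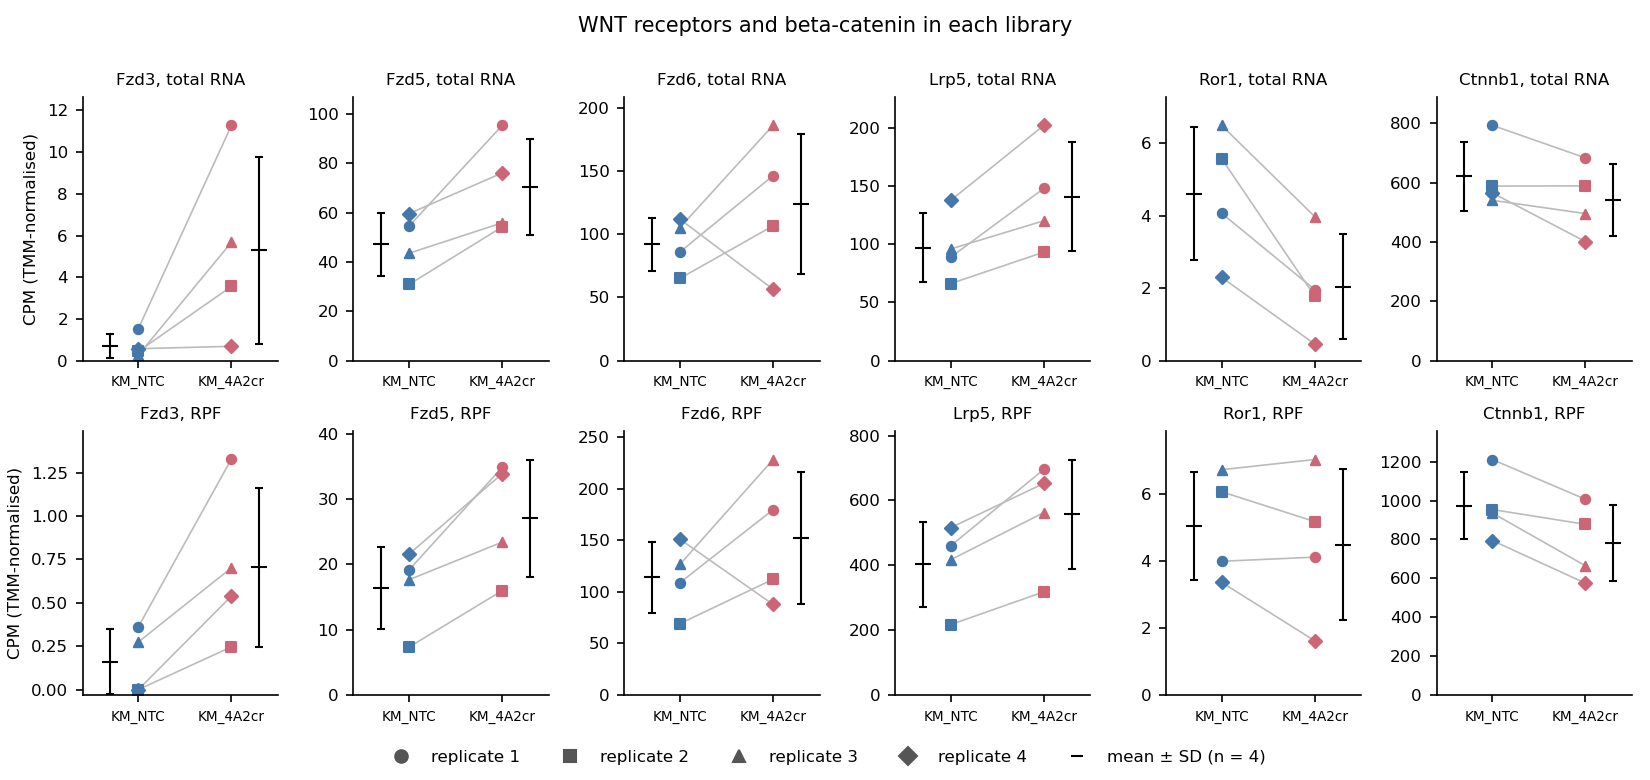
CPM in each library for *Fzd3*, *Fzd5*, *Fzd6*, *Lrp5*, *Ror1* and *Ctnnb1*, total RNA above and RPFs below, on linear axes. Lines join the 2 lines' libraries of 1 replicate and bars are mean ± SD (n = 4). All 4 joins of *Fzd5* and *Lrp5* slope upward in both rows and 3 of 4 do for *Fzd6*, while all 4 of *Ror1* slope downward in total RNA and 2 in RPFs.

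*Fzd1* and *Fzd2*, close relatives of *Fzd7*, showed spreads as wide as their differences. *Fzd1* RPFs were 9.69, 3.87, 4.93 and 4.62 CPM in KM_NTC and 21.5, 3.69, 8.28 and 2.15 CPM in KM_4A2cr. The log2 fold change was 0.48 (SE 0.30), with 2 pairs higher and 2 lower. Its total RNA value was 0.00 (SE 0.25), made of 3 pairs between 0.19 and 0.38 and pair 4 at -1.41. *Fzd2* gave -0.21 (SE 0.30) in RPFs and -0.30 (SE 0.29) in total RNA, and its lowest pair was again pair 4, at -1.56 and -1.38. *Fzd7*, with only 4 to 34 RPF counts in a library, gave 0.57 (SE 0.34) and 0.41 (SE 0.35). Without replicate 4 *Fzd1* gave 0.75 in RPFs and 0.30 in total RNA, *Fzd2* 0.05 and -0.10, and *Fzd7* 0.87 and 0.90. Without replicate 1 the values went the other way, to 0.06 and -0.16 for *Fzd1*, -0.67 and -0.50 for *Fzd2*, and 0.19 and 0.17 for *Fzd7*.

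The co-receptors *Lrp5* and *Lrp6*, which carry the signal to the destruction complex, were both higher in the first 3 pairs, and *Lrp5* in pair 4 as well. *Lrp5* RPFs were 460, 217, 417 and 516 CPM in KM_NTC and 696, 318, 563 and 653 CPM in KM_4A2cr, higher in 4 of 4 pairs. Total RNA was 88.8, 66.2, 95.9 and 138 CPM against 148, 93.1, 120 and 202 CPM, also higher in 4 of 4. The log2 fold changes of 0.48 (SE 0.12) and 0.53 (SE 0.12) left -0.05 (SE 0.10) in footprints per mRNA. *Lrp6* RPFs were 301, 189, 320 and 421 CPM against 430, 253, 481 and 366 CPM. Its first 3 pairs were higher by 0.42 to 0.59 on the log2 scale and pair 4 was at -0.20. The fit gave 0.33 (SE 0.16) in RPFs and 0.32 (SE 0.17) in total RNA, 0.51 (SE 0.10) and 0.47 (SE 0.09) without replicate 4, 0.27 to 0.31 and 0.25 to 0.27 without replicate 1, 2 or 3, and 0.02 (SE 0.09) per mRNA.

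*Ror1*, an oncofetal receptor that binds WNT5A, had the widest gap of the 9 tested genes between its RPF and its mRNA difference. Total RNA was 4.07, 5.58, 6.49 and 2.3 CPM in KM_NTC and 1.96, 1.78, 3.98 and 0.461 CPM in KM_4A2cr, lower in 4 of 4 pairs. RPFs were 3.98, 6.06, 6.71 and 3.36 CPM in KM_NTC and 4.11, 5.17, 7.01 and 1.62 CPM in KM_4A2cr, which put 2 pairs slightly higher and 2 lower. The log2 fold change was -1.22 (SE 0.27) in total RNA and -0.16 (SE 0.21) in RPFs. RPF CPM divided by total RNA CPM of the same lysate was 0.979, 1.09, 1.03 and 1.46 in KM_NTC and 2.09, 2.90, 1.76 and 3.50 in KM_4A2cr. These ratios did not overlap between the lines, a layout that the choice of *Ror1* used.

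The fitted difference in footprints per mRNA was 1.09 (SE 0.29), and it ranged from 0.93 to 1.3 when each replicate was left out in turn. The counts behind it are small. Over 4 libraries *Ror1* had 170 RPF counts and 151 total RNA counts in KM_NTC, and 132 and 49 in KM_4A2cr. The KM_4A2cr ratio of 3.50 in replicate 4 rests on 6 RPF and 2 total RNA counts. Of the 2 parts of the ratio, the total RNA differed by -1.22 and the footprints by -0.16.

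**Figure D3:**
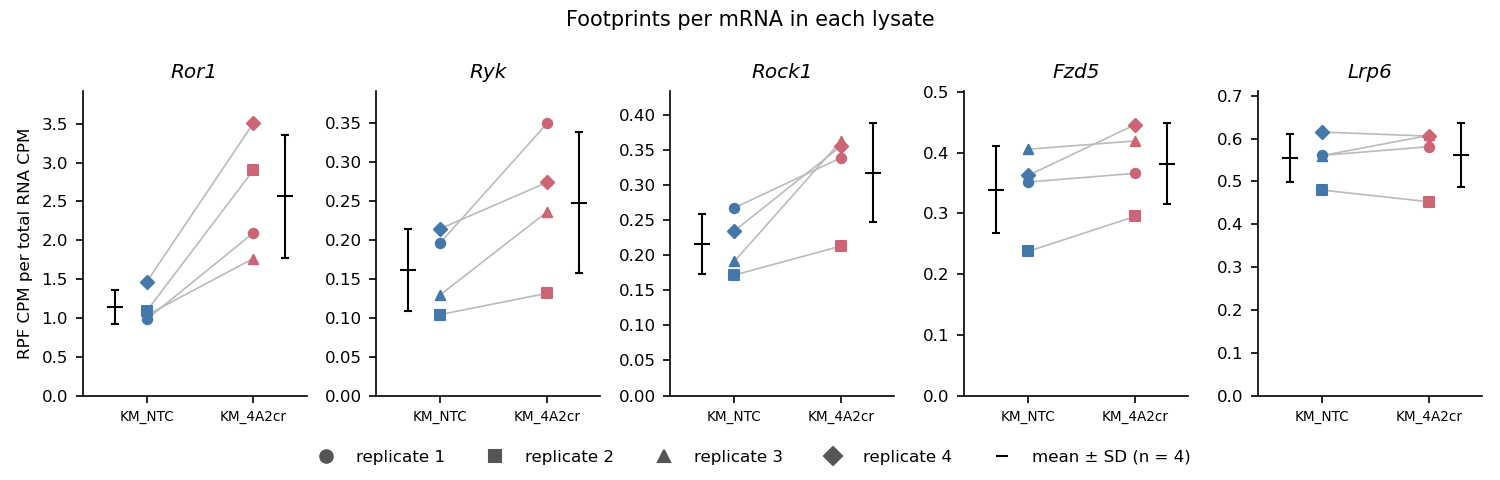
RPF CPM per total RNA CPM in each lysate for *Ror1*, *Ryk*, *Rock1*, *Fzd5* and *Lrp6*, on linear axes from 0, with lines joining replicates and bars for mean ± SD (n = 4). *Ror1* is between 0.979 and 1.46 in KM_NTC and between 1.76 and 3.50 in KM_4A2cr, while *Lrp6* stays between 0.453 and 0.615 across both.

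*Ctnnb1*, which also links cadherins to the actin skeleton, pointed the other way from most receptors. Its RPFs were 1211, 954, 936 and 794 CPM in KM_NTC and 1007, 878, 665 and 575 CPM in KM_4A2cr, lower in 4 of 4 pairs with overlapping ranges. Total RNA was 793, 588, 540 and 565 CPM against 683, 589, 495 and 401 CPM, lower in 3 of 4. The log2 fold changes were -0.34 (SE 0.13) in RPFs, -0.21 (SE 0.15) in total RNA and -0.13 (SE 0.10) in footprints per mRNA. Without replicate 4 the RPF and total RNA values were -0.29 (SE 0.11) and -0.12 (SE 0.09). These are the mRNA and its ribosomes and do not measure beta-catenin protein, whose level is set largely by degradation.

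**Figure D4:**
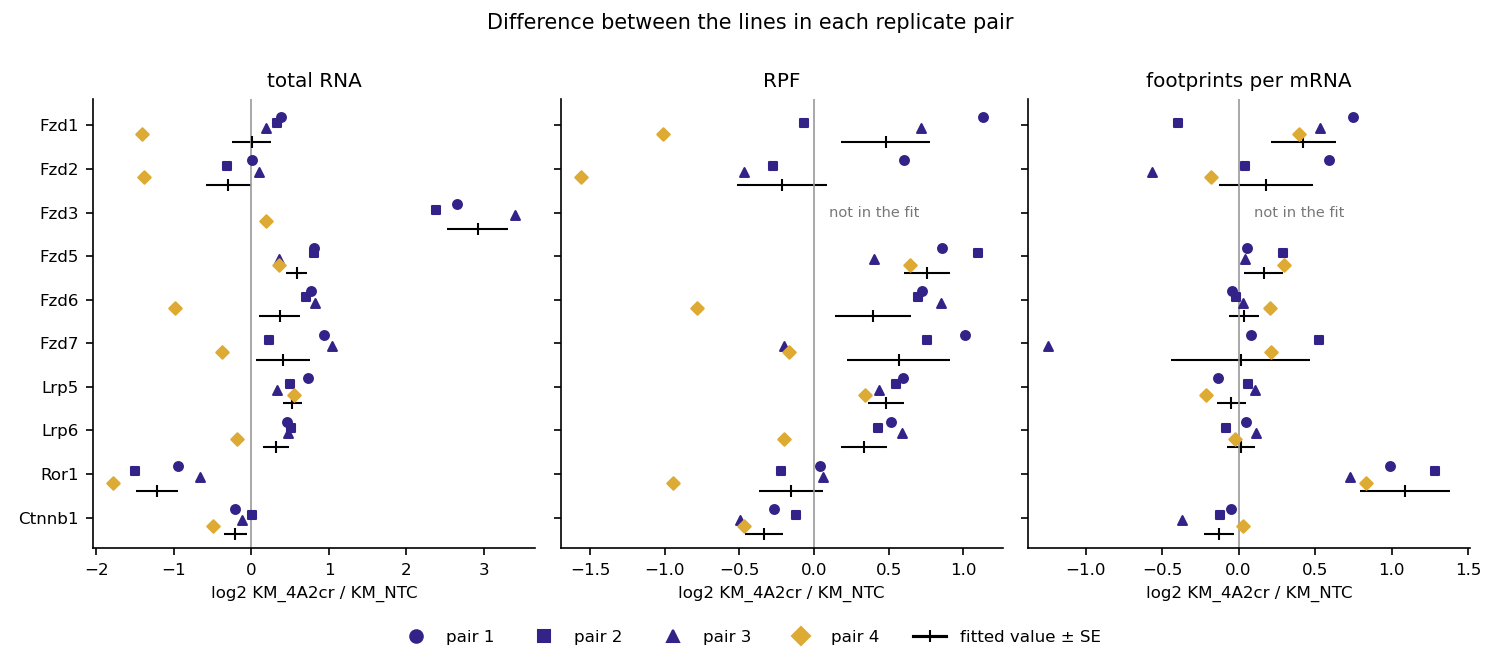
Log2 difference of KM_4A2cr against KM_NTC in each replicate pair, for total RNA, RPFs and footprints per mRNA (each panel has its own horizontal scale), with the fitted value ± SE in black. Pair 4, in yellow, is lowest in total RNA for 9 of the 10 genes, and the 4 footprint-per-mRNA values of *Ror1* lie between 0.73 and 1.28.

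By counts, 2 of the 9 genes tested in RPFs passed an adjusted p of 0.1 (*Fzd5* and *Lrp5*, both higher), beside 10.3% of 10291 genes, 6.6% higher and 3.72% lower. In total RNA 4 of 10 did (*Fzd3*, *Fzd5* and *Lrp5* higher, *Ror1* lower), beside 6.13% of 10880 genes, 4.35% higher and 1.78% lower. In footprints per mRNA 1 of 9 did (*Ror1*, higher), beside 2.87% of 9989 genes, 1.87% higher and 1% lower. The same contrasts chose the list, and *Fzd3* passed the filter mainly through the line in which it is high, so nothing is read from these counts. They also rested on the replicates. In RPFs, total RNA and footprints per mRNA in turn, edgeR called 0, 0 and 0 of these genes without replicate 1. Without replicate 2 the counts were the same. Without replicate 3 it called 0, 1 and 0, and without replicate 4 it called 7, 6 and 1. Of all genes it called 232, 207 and 15 without replicate 1, and 123, 140 and 19 without replicate 2. Without replicate 3 it called 32, 63 and 16 of all genes. Without replicate 4 it called 3469 of 10376, 3260 of 10941 and 800 of 10072. With no term for replicate edgeR called 0, 0 and 0 of these genes and 0, 0 and 0 of all genes. DESeq2 with that term called 2 of these genes in RPFs and 4 in total RNA, beside 958 and 589 of all genes. A threshold of 0.05 in edgeR left 1, 4 and 0 of these genes, beside 438, 321 and 75 of all genes. Scaled by library size alone, 3, 2 and 1 of them passed 0.1, beside 1619, 1130 and 133 of all genes. With library size as the sole scaling the median of all genes was -0.14 in RPFs and -0.15 in total RNA, and calls over all genes went from 679 higher and 383 lower to 482 and 1137 in RPFs, and from 473 and 194 to 262 and 868 in total RNA.

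Isoform shares of the receptors were close in both lines. *Fzd5* had 2 annotated isoforms in the tables, and the one used for RPFs made up 73.3% ± 4.81 of its total RNA in KM_NTC and 72.3% ± 5.28 in KM_4A2cr (SD, n = 4, share of the gene as estimated by RSEM). The share was 66.2% ± 1.60 and 65.5% ± 1.20 for *Lrp5*, 51.4% ± 1.35 and 51.5% ± 2.19 for *Fzd6*, and 59.5% ± 0.19 and 59.8% ± 1.98 for *Ctnnb1*. Each of these differences was smaller than the larger of the 2 SDs. The other 6 genes had 1 isoform each.

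The rest of the pathway was taken as 151 further genes in 8 lists, of which 147 were in the files. In RPFs 6 of 74 tested passed an adjusted p of 0.1, 5 higher and 1 lower, a share of 8.11% beside 10.3% of all genes, and the median log2 fold change was 0.17 beside -0.01 for all genes. In total RNA 6 of 79 passed, 4 higher and 2 lower (7.59% beside 6.13%), with a median of 0.07 beside 0.01. In footprints per mRNA 4 of 73 passed, all higher (5.48% beside 2.87%), with a median of 0.10 beside -0.02. Scaling by library size alone turned the split to 4 higher and 4 lower in RPFs and to 2 higher and 5 lower in total RNA.

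Among the 9 other receptors 3 were tested, and 2 of them passed in RPFs, both higher, beside 10.3% of all genes. *Ryk*, an atypical receptor tyrosine kinase with a WNT-binding domain, had RPFs of 25.9, 9.53, 14.9 and 22.0 CPM in KM_NTC and 56.2, 13.4, 36.6 and 35.5 CPM in KM_4A2cr, a log2 fold change of 0.92 (SE 0.16, adjusted p = 0.0196 in edgeR). Its total RNA gave 0.30 (SE 0.12, adjusted p = 0.207 in edgeR). Its footprints per mRNA rose by 0.64 (SE 0.12, adjusted p = 0.0146 in edgeR), higher in 4 of 4 pairs. *Ptk7*, a co-receptor of planar polarity, rose in RPFs by 0.68 (SE 0.12, adjusted p = 0.0202 in edgeR) and in total RNA by 0.50 (SE 0.13, adjusted p = 0.0655 in edgeR), also in 4 of 4 pairs. *Fzd4* gave 0.58 in RPFs (adjusted p = 0.171 in edgeR).

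In the list of receptor turnover, cofactors and antagonists 0 of 8 passed in RPFs by edgeR, with 2 at an unadjusted p below 0.05, *Znrf3* and *Kremen1*. In total RNA 1 of 10 passed, beside 6.13% of all genes. It was *Lgr6*, an R-spondin receptor, with 0.63 (SE 0.18, adjusted p = 0.0960 in edgeR) and 3 of 4 pairs higher. Of ligands and ligand secretion genes 1 of 5 passed in RPFs, beside 10.3% of all genes. It was *Wnt7b*, a lung epithelial ligand, with 0.55 in RPFs (SE 0.15, adjusted p = 0.0679 in edgeR). *Wls*, the carrier that takes WNT proteins to the surface, gave 0.45 there (adjusted p = 0.110 in edgeR), and *Porcn*, the acyltransferase that lipidates them, 0.54 (adjusted p = 0.132 in edgeR). None of the 7 ligand and secretion genes tested in total RNA passed by edgeR, with 3 at an unadjusted p below 0.05, *Wnt4*, *Wnt7a* and *Wnt10a*. By mean TPM *Wnt4* and *Wnt7a* were higher in KM_4A2cr. *Wnt10a* was lower there, at 4.8 ± 3.75 TPM against 9.1 ± 1.06 TPM in KM_NTC (SD, n = 4). In RPFs *Wnt10a* gave -0.68 (SE 0.31, adjusted p = 0.224 in edgeR), and it was the 1 gene of 5 below 0.

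Inside the cell, 0 of 20 Dishevelled and destruction complex genes passed in RPFs by edgeR, with 4 at an unadjusted p below 0.05, and the median was 0.15. In total RNA 9 of 19 were above 0 and 10 below, 0 passed by edgeR, with 2 at an unadjusted p below 0.05, and the median was -0.01. In footprints per mRNA 18 of 19 of them were above 0, as were 4732 of all 9989 genes, and 0 passed by edgeR, with 3 at an unadjusted p below 0.05 and a median of 0.14 beside -0.02 for all genes. Of the TCF factors and coactivators 0 of 9 passed in RPFs by edgeR and 0 at an unadjusted p below 0.05, with a median of 0.09.

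Of the beta-catenin/TCF target genes 1 of 6 passed in RPFs and 2 of 9 in total RNA, beside 10.3% and 6.13% of all genes. *Ephb2*, an ephrin receptor of intestinal crypts, rose in total RNA from 20.1, 15.1, 22.0 and 21.3 CPM to 68.7, 58.0, 119 and 38.5 CPM, with no overlap between the lines. Its log2 fold change was 1.78 (SE 0.22, adjusted p = 0.00239 in edgeR) in total RNA and 1.62 (SE 0.29, adjusted p = 0.0197 in edgeR) in RPFs. *Ephb3*, its relative, rose in total RNA by 0.60 (SE 0.14, adjusted p = 0.0503 in edgeR). *Lgr5* and *Ccnd1*, other genes of the list, gave 0.25 (SE 0.39, adjusted p = 0.786 in edgeR) and 0.01 (SE 0.15, adjusted p = 0.976 in edgeR) there, and *Axin2* did not pass the filter on low counts.

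In the planar polarity and beta-catenin-independent list 1 of 19 passed in RPFs and 1 of 19 in total RNA, *Ptk7* in both. The shares of all genes there were 10.3% and 6.13%. In footprints per mRNA 3 of 19 passed, beside 2.87% of all genes, and the list as a whole had a median of 0.02, with 10 genes above 0 and 9 below. By that measure *Rock1* and *Rock2*, the kinases downstream of RHOA, rose by 0.53 (SE 0.11, adjusted p = 0.0253 in edgeR) and 0.35 (SE 0.10, adjusted p = 0.0900 in edgeR). *Vangl1*, a core polarity protein, rose by 0.40 (SE 0.11, adjusted p = 0.0900 in edgeR). RPFs alone did not pass, with 0.35 for *Rock1*, 0.23 for *Rock2* and 0.57 for *Vangl1* (adjusted p = 0.171, 0.332 and 0.179 in edgeR). Total RNA of *Rock1* and *Rock2* was lower in 3 of 4 pairs, and that of *Vangl1* higher in 3 of 4. *Rock1* footprints per mRNA were 0.267, 0.172, 0.191 and 0.234 in KM_NTC and 0.339, 0.213, 0.362 and 0.355 in KM_4A2cr.

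In the list of cadherins and catenin-family genes, 2 of 7 passed in RPFs, 1 higher and 1 lower, beside 10.3% of all genes. Of the 7, 1 was above 0 in RPFs and 6 below, with a median of -0.16 beside -0.01 for all genes. In total RNA 2 of 7 passed, both lower, beside 6.13% of all genes. There 3 were above 0 and 4 below, with a median of -0.06 beside 0.01 for all genes. *Cdh1*, the epithelial cadherin, rose in RPFs by 0.44 (SE 0.13, adjusted p = 0.0845 in edgeR), with 0.45 in total RNA (adjusted p = 0.220 in edgeR). *Cdh2*, the neural cadherin, fell in RPFs by 0.82 (SE 0.22, adjusted p = 0.0704 in edgeR) and in total RNA by 0.91 (SE 0.21, adjusted p = 0.0437 in edgeR), and was lower in 4 of 4 pairs of both. Pair 4 was the farthest, and without it the differences were -0.52 (SE 0.11, adjusted p = 0.00449 in edgeR) and -0.64 (SE 0.10, adjusted p = 5.1e-05 in edgeR). *Pkp4*, a catenin relative, fell in total RNA by 0.46 (SE 0.13, adjusted p = 0.0888 in edgeR). *Cdh3*, the placental cadherin, gave -0.02 in RPFs (SE 0.16, adjusted p = 0.945 in edgeR) and 0.08 in total RNA (SE 0.14, adjusted p = 0.830 in edgeR).

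These 16 calls on 12 pathway genes depended on the replicates. The *Ephb2* total RNA call held without each of the 4 replicates (adjusted p = 0.0299, 0.0131, 0.0337 and 1.08e-09 in edgeR without replicates 1 to 4). The *Cdh2* total RNA call held without replicate 1 (adjusted p = 0.0803 in edgeR), and the *Ryk* calls in RPFs and in footprints per mRNA held without replicate 2 (adjusted p = 0.0673 and 0.0771 in edgeR). The other 12 calls were lost without each of replicates 1, 2 and 3, and all 16 held without replicate 4. Without the term for replicate 0 pathway genes and 0 of all genes passed in any of the 3 readouts by edgeR. Of the pathway genes 3, 3 and 4 were then at an unadjusted p below 0.05.

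**Figure D5:**
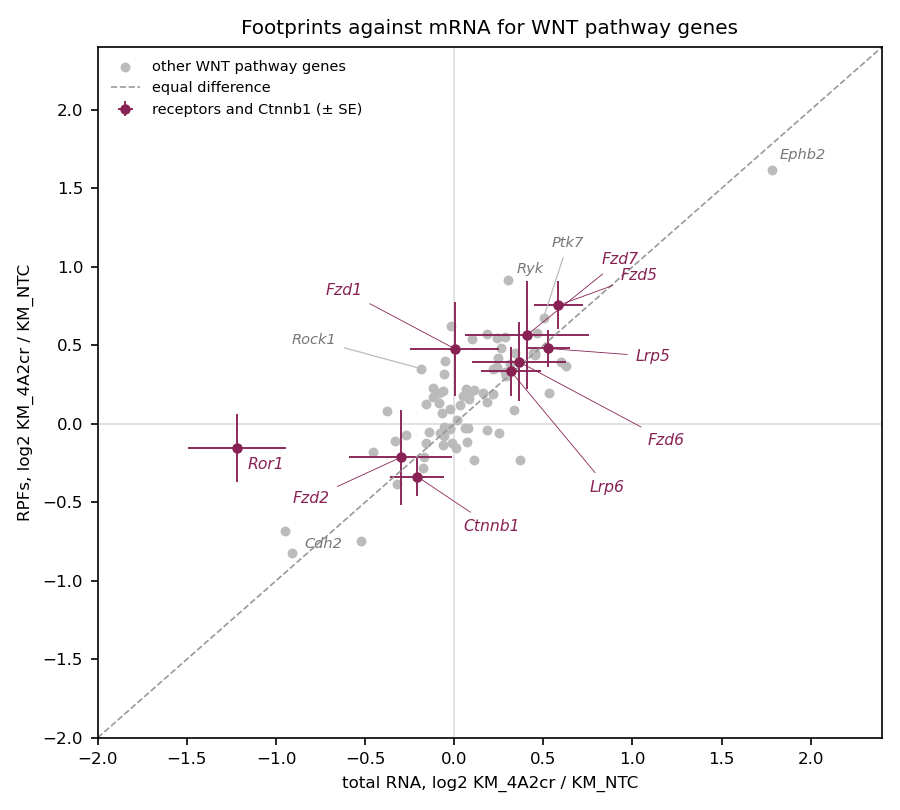
Log2 difference of KM_4A2cr against KM_NTC in RPFs (vertical) and in total RNA (horizontal) for 9 of the 10 genes (purple, ± SE) and 73 other WNT pathway genes tested in both (grey), with a dashed line where both are equal. *Fzd3* was not in the RPF fit. Most points lie near the line, *Ror1* lies above it at -1.22 and -0.16, and *Ryk* above it at 0.30 and 0.92.

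Genes with the pattern most like each of the genes behind the choice of the list were found over the 16 libraries, by Pearson correlation of log2 CPM centred within each kind of library. For *Ror1*, of 9988 genes, these were *Rnf39* (r = 0.91), *Itgb3bp* (r = 0.90) and *Arhgap42* (r = 0.90). For *Fzd3*, of 9989 genes, these were *Cldn18* (r = 0.90), *Nrcam* (r = 0.88) and *1190002N15Rik* (r = 0.88). These are the highest of many values, the libraries share lysates and days, and both receptors rest on few counts.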

How the data were processed

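Lung tumour cells were profiled by ribosome footprinting and total RNA sequencing in 16 libraries, grouped by sample title. For RPFs the authors deposited counts per transcript: reads were trimmed with Cutadapt 1.18, aligned with BBmap to the most abundant GENCODE vM27 protein-coding transcript of each gene, collapsed by UMI-tools 1.0.1 and summed over the coding region, leaving out codons at both ends. The total RNA files deposited hold RSEM 1.3.3 expected counts, TPM and isoform percent, after alignment with Bowtie2 2.3.5.1.

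Expected counts were summed per gene and rounded. Genes passing filterByExpr (minimum count 10) were TMM-normalised and tested with edgeR 4.0.16 (R 4.3.3, glmQLFTest, terms for replicate and line, Benjamini-Hochberg over all genes, threshold 0.1). Footprints per mRNA was the line-by-kind interaction in 1 model over 16 libraries. Each kind was scaled separately, so a shift of all footprints or all mRNA leaves no trace. Log2 CPM used a prior count of 2. CPM values have counting error, and a gene with 10 counts is imprecise.

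Replicate numbers pair the libraries: deviations from line means correlated at 0.763, 0.782, 0.575 and 0.687 (RPFs) and 0.756, 0.736, 0.611 and 0.708 (total RNA) for replicates 1 to 4.

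The 10 genes, the pathway and marker lists and the rule for named genes were chosen with earlier results of these data known. Named were the 10 genes, *Eif4a2*, up to 4 further pathway genes per list past the threshold, and the 3 genes most like *Ror1* and *Fzd3*. Pathway genes short of the threshold were named after their values were seen. Of 196 listed symbols 4 were unmatched. Alternatives were no replicate term, DESeq2 1.42.0, other scalings and filters, a threshold of 0.05, the RPF transcript alone, and each replicate left out. A further engineered allele shared by all libraries and 1 leukocyte marker are not reported here.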

Additional observations from a re-analysis of the deposited data

Results flagged for a closer look

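Groups of 4 libraries were checked for a library far from the other 3 by Dixon's ratio, and 2 of 58 passed its 95% critical value, where chance alone passes about 1 in 20. *Fzd7* total RNA in KM_NTC had a ratio of 0.838, with 5.17 CPM in replicate 4 and 1.40, 0.719 and 0.676 CPM in replicates 1 to 3. *Lrp6* RPF CPM per total RNA CPM in KM_4A2cr had a ratio of 0.830, with 0.453 in replicate 2 and 0.581, 0.607 and 0.606 in replicates 1, 3 and 4.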

How the results depend on the processing

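The counts of WNT pathway genes past the threshold (6 in RPFs, 6 in total RNA, 4 in footprints per mRNA) depended on the replicates. With each replicate left out in turn they ranged from 0 to 27 in RPFs, from 1 to 30 in total RNA and from 0 to 9 in footprints per mRNA, the highest of each without replicate 4. Without the replicate block all 3 pathway counts were 0, as were those of all genes. Of the pathway genes 3, 3 and 4 were then at an unadjusted p below 0.05 by edgeR. A threshold of 0.05 left 3, 2 and 2, beside 438, 321 and 75 of all genes. No filter on low counts gave 10 of 109 in RPFs and 11 of 133 in total RNA. Over all genes that setting gave 1227 of 14073 and 1268 of 17652. Scaling by library size alone gave 2 in footprints per mRNA, beside 133 of all genes. The cause was not tested beyond the fewer samples, the stricter threshold and the added genes these settings bring by construction. DESeq2 gave 9 and 7 in RPFs and total RNA, beside 958 and 589 of all genes.

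For the receptors and *Ctnnb1*, leaving out replicates changed the calls as given above. *Lrp5* in RPFs was 0.35 in place of 0.48 under library size alone. *Fzd3* could not be fitted without replicate 1 or 2. For the named pathway calls 122 alternative values kept their side of the threshold, 76 missed it and 0 reversed. Depth limits *Fzd3*, *Fzd7*, *Fzd2* and *Ror1* most. The effect of the guide cannot be told apart from other differences between the 2 lines, of which KM_4A2cr is a pool of clones.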
